A study of Mus musculus with 20 samples.

Results

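Follicular regulatory T cells (Tfr) whose clonotype also held a follicular helper T cell (Tfh) were compared with Tfr cells whose clonotype lay in the Tfr cluster alone. A clonotype was the set of cells of 1 mouse that shared both CDR3 sequences at the protein level, the CDR3 being the loop of the T cell receptor (TCR) made by V(D)J joining. A Tfh sister was a cell of the same clonotype in either of the clusters that the authors called Tfh-activated and Sostdc1. Of 28192 cells with RNA, 11650 were in the Tfr cluster and 8780 of these were matched to a TCR by library and barcode. Of the matched Tfr cells, 3276 were the only matched cell of their clonotype, 105 had sisters in other clusters only, 2960 had a Tfh sister (754 clonotypes) and 2439 lay in clonotypes of 2 or more cells found in Tfr alone (696 clonotypes). The last 2 sets, 5399 cells in all, form the comparison.

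The cells were CD4+CXCR5+PD1+ T cells sorted from the spleens of 10 irradiated C57BL/6 recipients, 8 to 10 weeks old, with 1 RNA and 1 TCR library per mouse. The 5 WT chimeras received congenic WT marrow and were immunized with NP-OVA in alum at week 6. The 5 564Igi chimeras received WT marrow mixed with marrow of 564Igi mice in a ratio of 10 to 5, which carry a knocked-in autoreactive B cell receptor, and their labels name no immunization. All were sacrificed at week 10, donors were 6 to 8 weeks old, and the immunization and the 564Igi marrow cannot be told apart. The libraries held 3.42e+06 to 1.52e+07 UMIs per mouse, and each mouse gave 77 to 572 Tfr cells per side. Across the RNA libraries 491 barcode sequences occurred in more than 1 library (988 cells), and cells were therefore joined within libraries only.

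Tfr cells restrain the germinal centre reaction, in which Tfh cells help B cells through CD40 ligand and IL-21. The transcription factor Foxp3 defines regulatory T cells, most of which acquire it in the thymus, although conventional CD4 T cells can also acquire it in the periphery. Because each TCR pair is made by random joining, T cells of 1 mouse with the same pair are taken to descend from 1 parent cell, and a pair found in both clusters marks a clone with cells in both.

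The receptor sequences show how such clonotypes look. Nucleotide CDR3 sequences of 3 clonotypes are given, of the α chain for the first and of both chains for the others, each the one with the most Tfr cells of its kind among cells listed with 1 α and 1 β chain. The first was mostly Tfr with sisters (564Igi mouse 17, 139 Tfr and 38 activated Tfh cells of 179). The second was mostly Tfh (WT mouse 12, 19 Tfr, 96 activated and 11 Sostdc1 cells of 128). The third lay in Tfr alone (564Igi mouse 13, 61 cells). Capitals mark the codons of CDR3β positions 6 and 7, counted from 1 at the first cysteine, which lie near the middle of the loop.
Tfr-majority α: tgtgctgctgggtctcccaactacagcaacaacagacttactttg
Tfr-minority α: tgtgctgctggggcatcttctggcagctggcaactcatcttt
Tfr-minority β: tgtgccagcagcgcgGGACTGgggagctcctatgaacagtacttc
Tfr-only α: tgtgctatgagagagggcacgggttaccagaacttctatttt
Tfr-only β: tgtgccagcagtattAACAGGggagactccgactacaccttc

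Every Tfr cell checked in each of these clonotypes carried the same bases in the chains shown, as did all 38 and 107 Tfh sisters of the first and second. The mean Kyte-Doolittle hydropathy of β positions 6 and 7, on which higher values are more hydrophobic, was 1.7 in the second and -4 in the third. The second β chain used TRBV13-1 (GRCm38 chr6:41116007-41116468, plus strand) and the third TRBV19 (chr6:41178375-41179048, plus strand). The α chains were listed as TRAV4-3, TRAV4D-4 and TRAV16, and TRAV4 genes exist in near-identical copies, so those calls are uncertain. Foxp3 was found in 68.3% of the Tfr cells of the first clonotype (exact binomial 95% interval 59.9 to 76.0%) and in 21 of its 38 Tfh sisters. In the second it was found in 0 of 19 Tfr cells (exact binomial 95% interval 0 to 17.6%) and in 0 of 107 Tfh sisters (0 to 3.39%). In the Tfr-only clonotype it was found in 60.7% of 61 cells (47.3 to 72.9%). Tnfsf8, the gene of CD30 ligand, which Tfh cells express, was found in 7.91% of the Tfr cells of the first clonotype (4.02 to 13.7%), in 68.4% of the second (43.4 to 87.4%) and in 13.1% of the third (5.84 to 24.2%). These intervals cover counting error only.

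Across mice, a receptor held by Tfr cells was found in Tfh cells almost only of the same animal. Of 4760 Tfr clonotypes, 754 had a Tfh cell in their own mouse and 10 had the same CDR3 pair in a Tfh cell of another mouse. Among 648 clonotypes with sisters that had cells with 1 α and 1 β chain on both sides, 646 (99.7%) shared the nucleotide sequences of both chains between a Tfr and a Tfh cell. The kind of sister was activated Tfh alone in 450 clonotypes, Sostdc1 alone in 90 and both in 214. Clonotypes with sisters held a median of 4 cells and up to 179, and Tfr-only clonotypes a median of 2 and up to 61. The main gene comparison did not match the sides for clone size. In 409 of the clonotypes with sisters (54.2%) only 1 cell lay in the Tfr cluster.

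**Figure D1:**
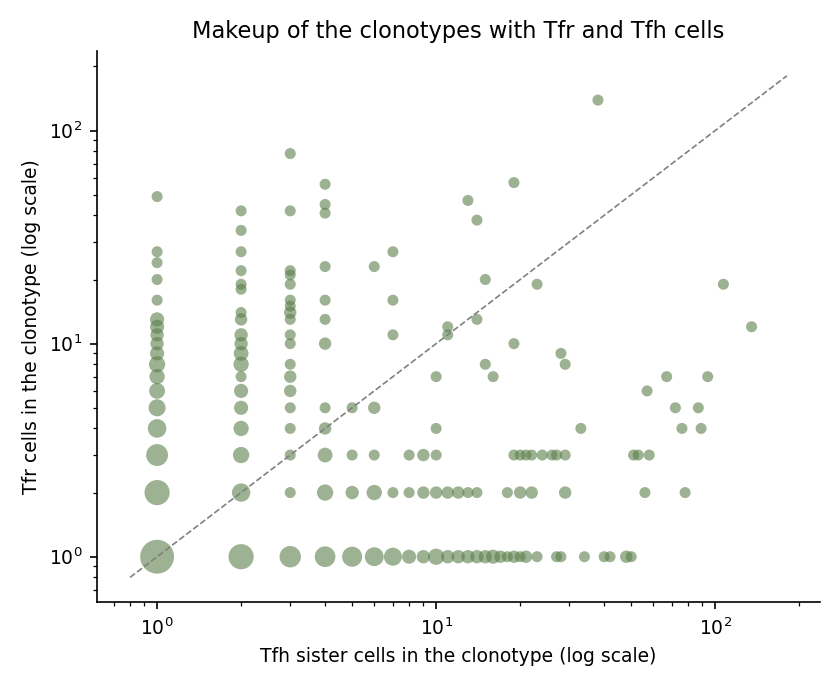
Tfr cells (vertical, log scale) against Tfh sister cells (horizontal, log scale) in each of 754 clonotypes with sisters, with larger points where more clonotypes share a position and a dashed line of equal numbers. Clonotypes lie along both axes, from 139 Tfr and 38 Tfh cells at the top to single Tfr cells among many Tfh cells at the lower right.

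Tfr cells outnumbered all other cells of the clonotype in 244 clonotypes with sisters (Tfr-majority, 2184 Tfr cells, 40 to 489 per mouse), and did not in 510 (Tfr-minority, 776 Tfr cells, 37 to 115 per mouse). So 73.8% of the Tfr cells with a sister came from Tfr-majority clonotypes. This split counts cluster names within a clonotype and uses no other gene level, but the cluster names themselves rest on expression. Ties count as Tfr-minority, and 199 of those clonotypes held 1 Tfr and 1 Tfh cell. All 409 clonotypes with sisters and 1 Tfr cell are Tfr-minority by definition, so the split is tied to the number of Tfr cells.

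The share of Tfr cells with a Tfh sister differed by less than the spread between mice. Among Tfr cells of clonotypes with 2 or more cells, the share in the WT mice 11, 12, 14, 23 and 36 was 56.1, 62.7, 42.7, 60.3 and 57.6%. In the 564Igi mice 13, 17, 21, 24 and 34 it was 44.0, 64.4, 43.6, 43.5 and 45.3%. Apart from mouse 17, the 564Igi mice lay between 43.5 and 45.3%, and mouse 17 lay above every WT mouse. The means were 55.9% ± 7.79 (SD, n = 5) in WT and 48.2% ± 9.12 (n = 5) in 564Igi, a difference of -7.73 percentage points (two-sided exact permutation test, p = 0.206). Mouse 17 held the clonotype of 139 Tfr cells, which made up 32.1% of its Tfr cells with a sister. Without that mouse the difference was -11.8 points (exact permutation p = 0.0794), with every mouse thinned to 951 matched cells it was -3.88 points (exact permutation p = 0.516, from 951 to 3062 matched cells per mouse), and with clonotypes instead of cells counted the sign turned, to 1.31 points (exact permutation p = 0.698). Of Tfr cells with a sister, 76.2% ± 5.38 lay in Tfr-majority clonotypes in WT mice and 63.5% ± 10.8 in 564Igi mice (n = 5 each, exact permutation p = 0.0476, adjusted over these 2 shares 0.0952). This second share was examined after the first results were seen, and with each mouse left out the difference was -16.2 to -9.83 points. The exact permutation p was 0.0159 without 564Igi mouse 17 (adjusted 0.0317) and 0.0635 to 0.0952 without any of the others.

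**Figure D2:**
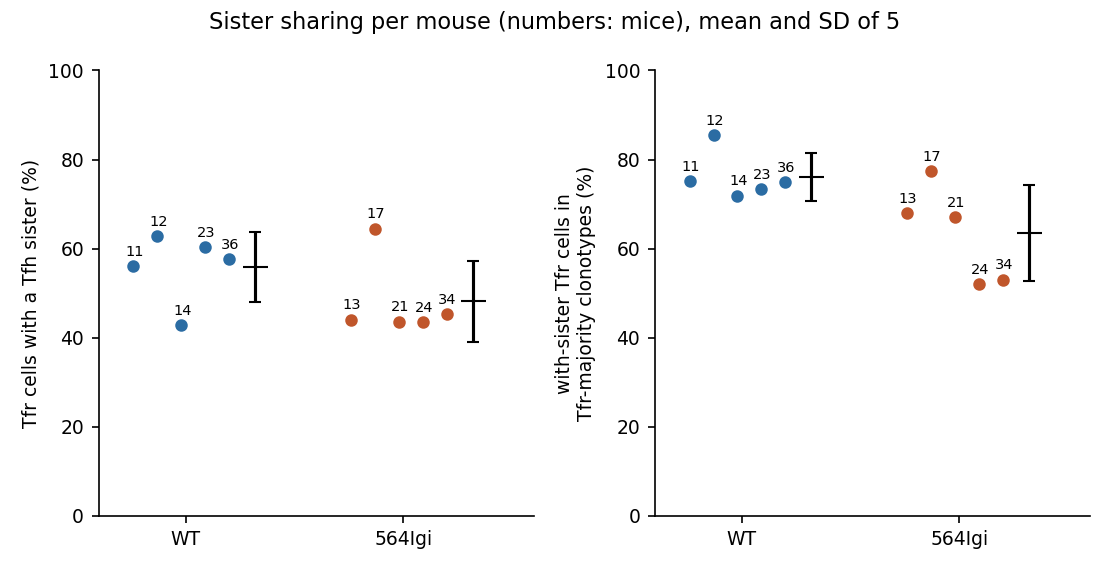
Share of Tfr cells with a Tfh sister (left) and share of those in Tfr-majority clonotypes (right), in percent, for each of 5 WT and 5 564Igi mice (points, numbered by mouse) with the mean and SD in black. On the left 4 of 5 564Igi mice lie between 43.5 and 45.3% and mouse 17 at 64.4%.

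In the paired comparison over 10 mice, Tfr cells with a Tfh sister had less Foxp3 and less of several regulatory T cell receptors than Tfr-only cells of the same mouse, and more Tnfsf8, Ms4a4b and Ly6a. Part of the Tfr cells with a sister had low Foxp3 and a Tnfsf8 share near that of Tfh cells, as given further on. Whether such cells lie at the border of the Tfr cluster was not tested. A limma fit with mouse as a block on the mean log2(corrected count + 1) of each side called 11 of 9942 genes (0.111%). A call needed a p below 0.01 after Benjamini-Hochberg adjustment and a log2 fold change beyond 0.2 in either direction. Of these, 3 were higher (0.0302%) and 8 lower (0.0805%) in cells with a sister. At an adjusted p below 0.05 with no limit on the fold change, 59 were higher (0.593%) and 55 lower (0.553%), together 1.15% of genes. The median log2 fold change of all genes was -0.00035. Without mice 34 and 36, whose libraries are numbered apart from the others, 7 genes were called, 3 higher and 4 lower.

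The genes that fell include the defining factor of the lineage and receptors of activated regulatory T cells. Foxp3 (chromosome X, 7573644 to 7595245, plus strand) had mean levels per mouse of 0.72 (lowest), 0.98 (median) and 1.14 (highest) log2 units in Tfr-only cells and of 0.49, 0.70 and 0.87 in cells with a sister. It was lower with a sister in all 10 mice, and the log2 fold change was -0.26 ± 0.02 (SE, limma adjusted p = 1.11e-08). A Foxp3 UMI was found in 61.3% ± 5.59 (SD, n = 10) of Tfr-only cells and in 46.4% ± 5.28 of cells with a sister, a difference of -14.8 points ± 3.97 (exact sign-flip permutation p = 0.00195, the smallest that 10 pairs allow, adjusted over 7 measures 0.0137). The share in Tfh cells of clonotypes with no Tfr cell, where the gene should be absent, was 2.46% ± 1.70, at a median of 3686 raw UMIs per cell against 3420 in Tfr-only cells and 3463 in Tfr cells with a sister. These shares count corrected UMIs, which the authors had already adjusted for depth.

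Tnfrsf9, which encodes the costimulatory receptor 4-1BB, was at 1.12, 1.21 and 1.40 log2 units (lowest, median and highest mouse) in Tfr-only cells and at 0.55, 0.94 and 1.04 in cells with a sister, so the sides did not overlap. Its log2 fold change was -0.34 ± 0.04 (SE, limma adjusted p = 1.12e-07) and it was lower in all 10 mice. Tnfrsf18, the gene of GITR, a receptor used to mark regulatory T cells, fell by 0.22 (limma adjusted p = 0.000433, lower in 10 of 10 mice), from levels of 1.42 to 1.75 in Tfr-only cells to 1.03 to 1.52. Cd81, a tetraspanin that organises membrane receptors, fell by 0.28 (limma adjusted p = 3.46e-06). The difference was between -0.10 and -0.44 log2 units in 9 mice and -0.0096 in 564Igi mouse 24. Il1r2, a decoy receptor for interleukin 1, fell by 0.24 and in all 10 mice, from a median of 0.85 to 0.55 log2 units (limma adjusted p = 1.42e-06), while against clonotypes of 1 cell it was at 0.0021 (limma adjusted p = 0.979). Cd74, the invariant chain of MHC class II, fell by 0.23 (limma adjusted p = 0.000759, lower in 9 of 10 mice), and Sdf4, a calcium-binding protein of the secretory pathway, fell by 0.26 (limma adjusted p = 0.00182, 9 of 10 mice). Cst7, which encodes the protease inhibitor cystatin F, was called too (-0.25, limma adjusted p = 0.000688) but was lower in 8 of 10 mice only, and it is named here after its value was seen.

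The 3 genes that rose were Ly6a, Tnfsf8 and Ms4a4b. Tnfsf8 (chromosome 4, 63831308 to 63861347, minus strand) was at 0.10, 0.16 and 0.23 log2 units (lowest, median and highest mouse) in Tfr-only cells and at 0.27, 0.42 and 0.56 in cells with a sister, with no overlap. Its log2 fold change was 0.27 ± 0.02 (SE, limma adjusted p = 3.23e-11). Ms4a4b, a membrane protein of T cells from the family of CD20, rose by 0.25 ± 0.03 (limma adjusted p = 3.51e-07, 10 of 10 mice). Against Tfr cells of clonotypes of 1 cell in place of Tfr-only clonotypes, the direction of Ms4a4b turned (-0.0421, limma adjusted p = 0.536). Ly6a, which encodes Sca-1 and is induced by interferon, rose by 0.29 ± 0.04 (limma adjusted p = 6.04e-05, 10 of 10 mice). The Ly6a level differed far more between mice than between sides, from 0.31 to 2.09 log2 units in Tfr-only cells. Much of that spread lay between conditions, with 0.31 to 1.55 in WT mice and 1.44 to 2.09 in 564Igi mice. The authors normalized each condition separately. Ms4a4b and Ly6a belong to families of similar genes, so reads of close copies could have been split between them.

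Since fewer than 5 genes were called as higher, the 8 others with the lowest p among higher genes are named too. Each missed the limit on the fold change. Cd40lg, the gene of CD40 ligand, by which Tfh cells help B cells, was at 0.11, 0.14 and 0.20 log2 units (lowest, median and highest mouse) in Tfr-only cells and at 0.27, 0.30 and 0.43 in cells with a sister, a log2 fold change of 0.18 ± 0.02 (SE, limma adjusted p = 1.69e-08). Il21, the other main helper signal, had a fold change of 0.10 ± 0.01 on the log2 scale (limma adjusted p = 1.42e-06), and was found in 2.91% of Tfr-only cells and 10.2% of cells with a sister. The cytokine gene Tnf differed by 0.11, the integrin chain Itgb1 by 0.15, the phosphatase gene Ptpn11 by 0.13, the NF-κB regulator Nfkbid by 0.12, the inhibitory ligand Cd200 by 0.09 and the cell cycle regulator Rgcc by 0.06, with limma adjusted p from 9.93e-06 to 0.00015. All 8 were higher in at least 9 of 10 mice.

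Among the gene lists, the 5 calls were 3 regulatory T cell genes, 1 Tfh gene and 1 interferon-stimulated gene. Over all genes 0.0302% were called as higher and 0.0805% as lower. Of 23 regulatory T cell genes 3 fell (Foxp3, Tnfrsf9, Tnfrsf18) and none rose, and 10 were lower at an adjusted p below 0.05. The median of this list was -0.06 log2 units, beside -0.00035 for all genes. Ikzf4, which encodes the Foxp3 partner Eos, differed by -0.09 (limma adjusted p = 3.41e-05) and Tnfrsf4, the gene of OX40, by -0.19 (limma adjusted p = 0.00809), both below the fold limit. Il2ra, the gene of CD25, had a fold change of -0.03 (limma adjusted p = 0.261) and Ctla4 of -0.09 (limma adjusted p = 0.098). Of 26 Tfh genes 1 rose (Tnfsf8), none fell, and 6 were higher at an adjusted p below 0.05, with a list median of 0.02. Sostdc1, the marker of one of the sister clusters, differed by 0.09 (limma adjusted p = 0.000433). The Tfh lineage factor Bcl6 (0.01, limma adjusted p = 0.923) and the receptor Pdcd1 (0.01, limma adjusted p = 0.961) did not pass the test. Of 17 homing genes none was called, with Cxcr3, the chemokine receptor of type 1 cells, at 0.10 (limma adjusted p = 0.0145), and the list median was -0.0015. In the TCR response list 0 of 15 genes were called and 5 were higher at an adjusted p below 0.05, led by Egr1 (0.09, limma adjusted p = 0.0222) and Egr2 (0.09, limma adjusted p = 0.000655). Of 19 interferon-stimulated genes 1 rose (Ly6a) and the list median was -0.00015. Ly6e, of the same list, was at -0.19 (limma adjusted p = 0.00182), below the fold limit, and in Tfr-minority clonotypes it fell by 0.61 (limma adjusted p = 7.5e-13). None was called among 8 inhibitory receptors, 6 effector, 16 glycolysis and 8 heat shock genes tested.

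Most of the called genes differed by the makeup of the clonotype, Il1r2 by a smaller fold, and for Ly6a a direct test did not pass. Each of the following fits set Tfr cells of clonotypes with sisters against the same Tfr-only cells, so their values stand side by side and share that side. In Tfr-majority clonotypes 0 of 9905 genes were called (0%) and 2 passed an adjusted p below 0.05 (0.0202%). An unadjusted p below 0.05 by limma was found for 731 genes (7.38%). The Tfr-majority side rested on 8 to 39 clonotypes per mouse and the Tfr-minority side on 26 to 82. So a count of 0 does not show that no gene differed. In Tfr-minority clonotypes 121 of 9878 genes were called (1.22%), 53 higher (0.537%) and 68 lower (0.688%). At an adjusted p below 0.05 with no fold limit, 8.4% of genes were higher and 4.54% lower in Tfr-minority clonotypes, 12.9% together. The difference between the kinds was tested directly by limma on the same mice, as an alternative chosen after seeing the data, and Tfr cells of Tfr-majority clonotypes differed from those of Tfr-minority clonotypes in 141 genes, 68 higher and 73 lower.

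Foxp3 averaged 0.97 ± 0.11 log2 units (SD, n = 10 mice) in Tfr-only cells, 0.90 ± 0.14 in Tfr-majority and 0.32 ± 0.15 in Tfr-minority clonotypes. Its log2 fold change against Tfr-only cells was -0.07 in Tfr-majority clonotypes (95% interval -0.14 to 0.00047, limma adjusted p = 0.673) and -0.65 ± 0.04 in Tfr-minority clonotypes (SE, limma adjusted p = 3.25e-15). The highest Tfr-minority value, 0.59 in WT mouse 36, lay below the lowest value of the other sides, 0.66 in Tfr-majority clonotypes of the same mouse. A Foxp3 UMI was found in 58.9% ± 7.72 of Tfr cells of Tfr-majority clonotypes and in 20.9% ± 9.56 of those of Tfr-minority clonotypes (SD, n = 10). Tnfsf8 was at 0.16 ± 0.06 log2 units in Tfr-majority and 1.04 ± 0.17 in Tfr-minority clonotypes, and the fold changes were -0.0038 (95% interval -0.044 to 0.036, limma adjusted p = 0.967) and 0.88 ± 0.04 (SE, limma adjusted p = 1.99e-19). For Cd40lg they were 0.01 (-0.016 to 0.043, limma adjusted p = 0.862) and 0.56 ± 0.03 (limma adjusted p = 1.82e-14). Tnfrsf9 had a fold change of -0.19 in Tfr-majority clonotypes (95% interval -0.27 to -0.10, limma adjusted p = 0.113) and of -0.65 in Tfr-minority clonotypes (limma adjusted p = 1.17e-13). Ly6a was at 0.24 in Tfr-majority clonotypes (95% interval 0.14 to 0.35, limma adjusted p = 0.106, higher in 8 of 10 mice). In Tfr-minority clonotypes it was at 0.45 (limma adjusted p = 8.48e-05). Its difference between Tfr-majority and Tfr-minority clonotypes did not pass (-0.21, limma adjusted p = 0.135). Il1r2 was at -0.17 in Tfr-majority clonotypes (95% interval -0.24 to -0.11, limma adjusted p = 0.0559, lower in 8 of 10 mice). In Tfr-minority clonotypes it was at -0.37 (limma adjusted p = 4.44e-09). Its difference between Tfr-majority and Tfr-minority clonotypes was 0.197 (limma adjusted p = 0.000496), just below the fold limit.

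**Figure D3:**
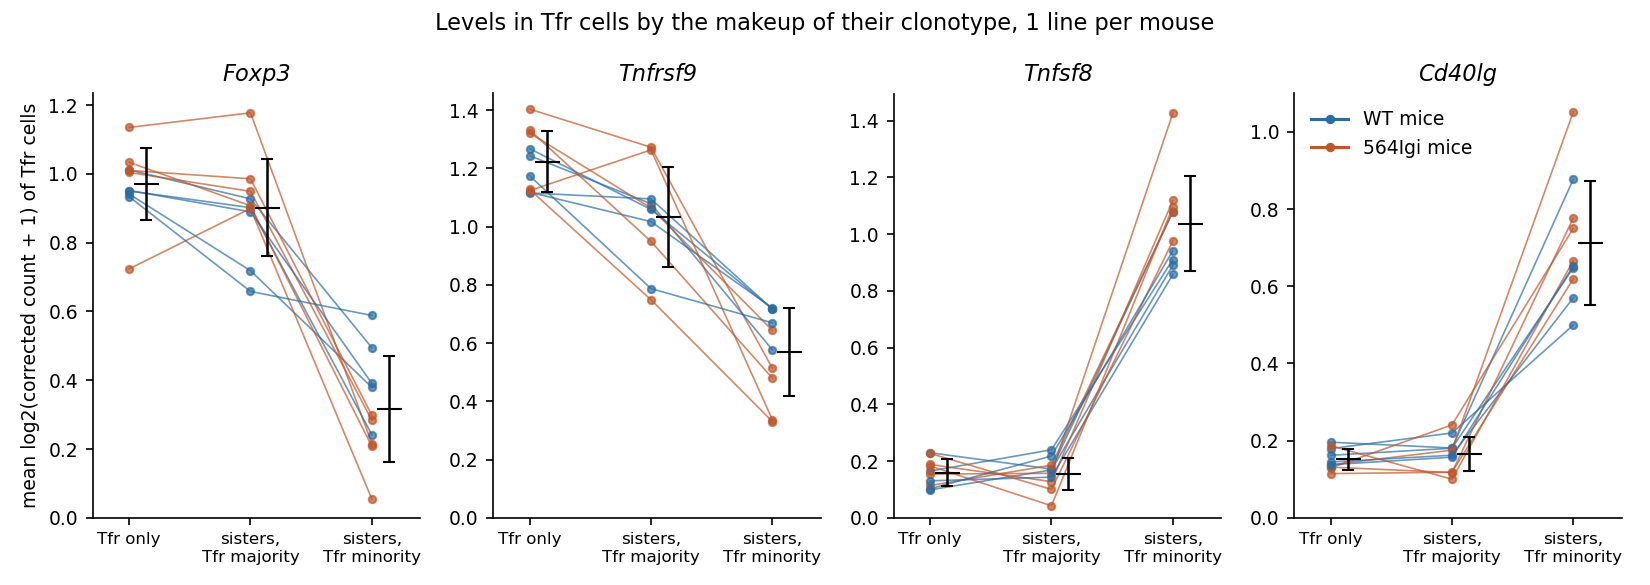
Mean log2(corrected count + 1) of Foxp3, Tnfrsf9, Tnfsf8 and Cd40lg in Tfr cells of each mouse (1 line per mouse, blue WT, orange 564Igi) in Tfr-only clonotypes, Tfr-majority clonotypes with sisters and Tfr-minority clonotypes with sisters, with the mean and SD in black. For Foxp3 all 10 mice are lowest in Tfr-minority clonotypes, and for Tnfsf8 and Cd40lg all 10 are highest there.

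In Tfr-minority clonotypes 10 of 23 regulatory T cell genes fell and 8 of 26 Tfh genes rose. Over all genes of that fit 0.688% fell and 0.537% rose by the same rule. The regulatory genes that fell were Foxp3, Ikzf2, Ikzf4, Ctla4, Tnfrsf18, Tnfrsf4, Tnfrsf9, Izumo1r, Capg and Tigit. Ikzf2, which encodes Helios, fell by 0.58 (limma adjusted p = 1.97e-09, lower in 10 of 10 mice), the inhibitory receptor Tigit by 0.54 (limma adjusted p = 2.44e-08) and Cd74 by 0.77 (limma adjusted p = 5.12e-14). The Tfh genes that rose were Il21, Cd40lg, Btla, Slamf6, Tnfsf8, Sostdc1, Cd200 and Tbc1d4, and Sh2d1a, the gene of the adaptor SAP, fell by 0.29 (limma adjusted p = 2.3e-05). Il21 rose by 0.29 (limma adjusted p = 3.12e-13) and Sostdc1 by 0.25 (limma adjusted p = 1.82e-08). Of the homing list Tcf7, which encodes the factor TCF1, rose by 0.37 (limma adjusted p = 2.41e-08), Itgb1 rose by 0.41 (limma adjusted p = 4.44e-09) and Itgb7 fell by 0.30 (limma adjusted p = 3.45e-08). Of the 15 TCR response genes 5 rose (Nr4a1, Egr1, Egr2, Cd69 and Junb), with Egr2 at 0.38 (limma adjusted p = 1.09e-10) and Nr4a1 at 0.25 (limma adjusted p = 1.16e-07). The list medians were -0.16 for regulatory T cell genes, 0.09 for Tfh genes, 0.0021 for homing and 0.16 for TCR response, beside 0.0055 for all genes. In Tfr-majority clonotypes the same medians were -0.02, -0.0058, -0.0017 and -0.01, beside -0.0036.

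Depth and stress measures moved with the Tfr-minority clonotypes. Their Tfr cells had a mean of 4530 ± 740.1 raw UMIs against 3847 ± 515.1 in Tfr-only cells (SD, n = 10, higher in 10 of 10 mice, exact sign-flip permutation p = 0.00195, adjusted over 7 measures 0.00342). Ribosomal UMIs were 22.4% ± 1.25 against 20.7% ± 1.10, and the authors' heat shock score was 0.108 ± 0.076 against 0.0315 ± 0.057, each with the same exact permutation p. Of 8 heat shock genes tested 2 were called as higher, Hsp90ab1 (0.21, limma adjusted p = 0.000373) and Hspa8 (0.20, limma adjusted p = 0.00156). The share called as higher over all genes of that fit was 0.537%. When only cells between the UMI quartiles of the Tfr-only cells of their mouse were kept, 84 genes were called by limma, 41 higher and 43 lower, with Foxp3 at -0.65 and Tnfsf8 at 0.81. Over all clonotypes with sisters the differences in UMIs (77.7 ± 174.6), genes, mitochondrial and ribosomal percent, heat shock score and chain number did not pass the adjusted exact permutation test (adjusted p from 0.185 to 0.877).

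**Figure D4:**
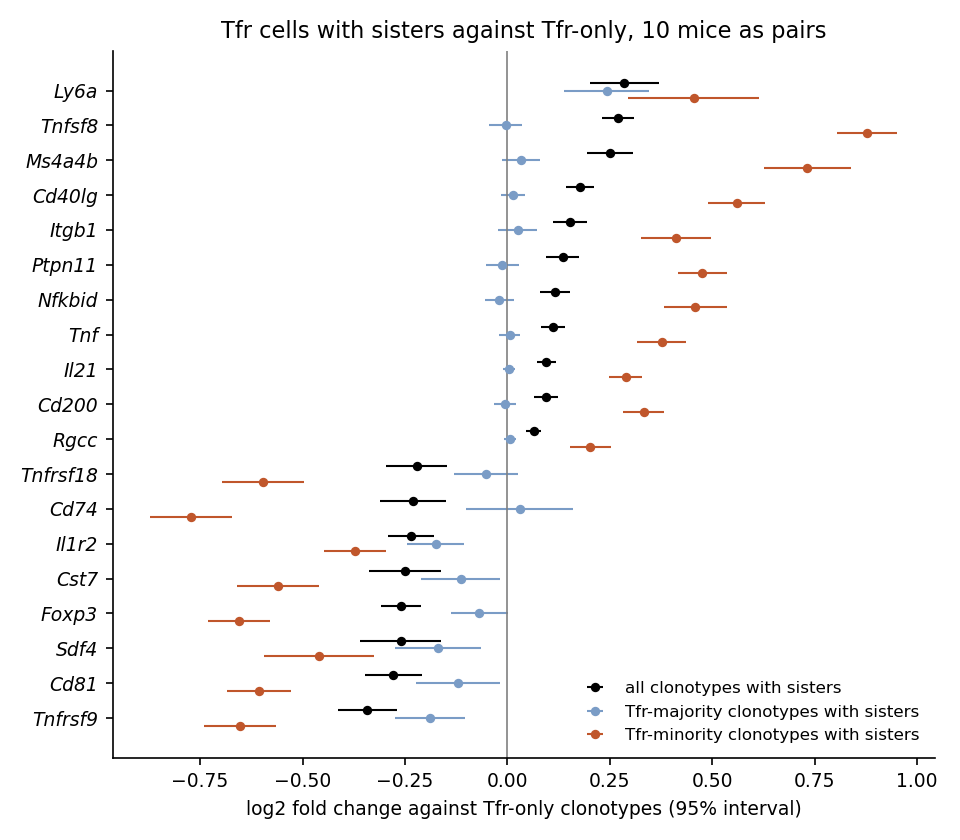
Log2 fold change (horizontal, with its 95% interval) of the 11 called genes and the 8 named as not called, in Tfr cells of all, of Tfr-majority and of Tfr-minority clonotypes with sisters against Tfr-only clonotypes of the same 10 mice. For Tnfsf8 and Cd74 the Tfr-majority interval spans 0 and the Tfr-minority values are 0.88 and -0.77.

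Split by the Tfr share of the clonotype, Foxp3 was found in 8.72% ± 6.81 (SD, n = 10 mice) of Tfr cells where Tfr cells made up at most 25% of the clonotype (342 cells). It was found in 30% ± 13.8 where they made up over 25 to 50%, in 54.2% ± 6.69 over 50 to 75% and in 60.9% ± 10.4 over 75%, beside 61.3% in Tfr-only clonotypes. For Tnfsf8 the shares in the same order were 73.9% ± 10.6, 45.0% ± 11.9, 19.3% ± 6.93 and 9.81% ± 5.57, beside 12.7% ± 3.68. For Cd40lg they were 49.0% ± 10.0, 37.9% ± 10.4, 19.9% ± 7.61 and 11.3% ± 4.48, beside 12.7% ± 1.74. The over 50 to 75% class had as few as 7 cells in a mouse. In Tfh cells of clonotypes with no Tfr cell, Tnfsf8 was found in 72.0% ± 6.37, near the 73.9% of the class of at most 25%. Foxp3 was found in 2.46% ± 1.70 of those Tfh cells, below the 8.72% of that class (0 to 23.3% over mice). These bins are a description with no test. Tfr cells whose clonotype had a Sostdc1 sister had a Foxp3 UMI in 33.7% ± 15.4 and those with activated sisters alone in 51.3% ± 5.37. The former ranged from 5 to 51.9% over mice, with as few as 20 cells in a mouse. Of their 304 clonotypes, 214 also held an activated sister. The sets were not matched for the Tfr share of the clonotype, and its part was not tested.

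**Figure D5:**
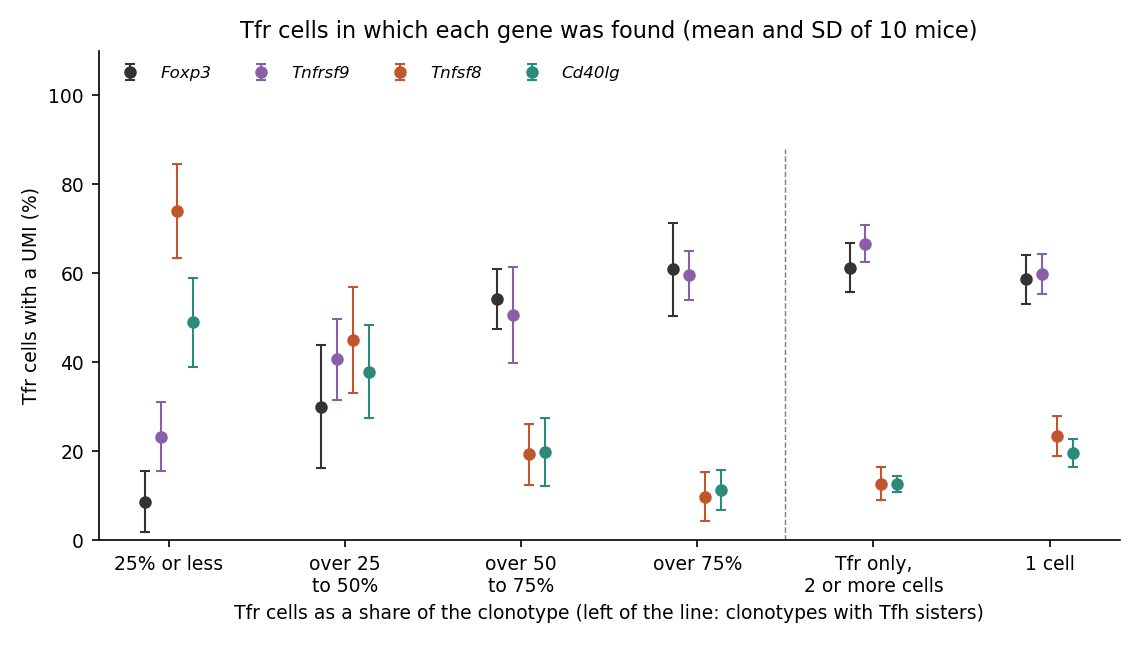
Percent of Tfr cells with a UMI of Foxp3, Tnfrsf9, Tnfsf8 and Cd40lg (vertical, mean and SD of 10 mice) by the share of Tfr cells in their clonotype, with clonotypes without Tfh sisters right of the dashed line. Foxp3 goes from 8.72% to 60.9% and Tnfsf8 from 73.9% to 9.81% over the 4 classes with sisters.

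In Tfh sisters, too, Foxp3 was found more often where Tfr cells were the majority, and the ranges over mice did not overlap between Tfr-majority and Tfr-minority clonotypes. It was found in 33.6% ± 6.33 (SD, n = 10 mice, 25.8 to 45.5%) of the 485 Tfh sisters of Tfr-majority clonotypes and in 4.0% ± 2.11 (1.72 to 8.19%) of the 3646 Tfh sisters of Tfr-minority clonotypes. It was found in 2.46% ± 1.70 (0.857 to 6.60%) of 3899 Tfh cells of clonotypes of 2 or more cells without a Tfr cell. The difference from the last was 31.1 points ± 6.81 in Tfr-majority clonotypes and 1.54 points ± 1.70 in Tfr-minority clonotypes, higher in 10 of 10 mice for both (exact sign-flip permutation p = 0.00195, adjusted over both 0.00195). Median raw UMIs were 3695, 3550.5 and 3686 in the 3 sets. The sisters of Tfr-majority clonotypes numbered only 11 to 93 per mouse, and those of Tfr-minority clonotypes 109 to 579. This comparison was added after the first results were seen. Tnfsf8 was at 0.42 ± 0.20 log2 units in the Tfh sisters of Tfr-majority clonotypes, 1.29 ± 0.09 in those of Tfr-minority clonotypes and 1.34 ± 0.22 in Tfh cells without a Tfr sister. So both genes went in part against the Tfh name of the sisters in Tfr-majority clonotypes, which is a cluster name only. Whether such sisters lie at the border of the Tfh clusters was not tested.

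With Tfr cells limited to those in which a Foxp3 UMI was found, and Foxp3 itself left out, limma called 0 of 10009 genes, none passed an adjusted p below 0.05, and 613 (6.12%) had an unadjusted p below 0.05. That comparison had 29 to 263 cells with a sister per mouse, and several folds stayed away from 0. Ly6a was at 0.22 (95% interval 0.13 to 0.32, limma adjusted p = 0.205, higher in 10 of 10 mice), Tnfrsf9 at -0.19 (-0.28 to -0.10, limma adjusted p = 0.277, lower in 9 of 10) and Il1r2 at -0.16 (-0.24 to -0.08, limma adjusted p = 0.374, lower in 8 of 10). Tnfsf8 was at 0.04 (-0.0071 to 0.079, limma adjusted p = 0.861). With clonotypes limited to at least 2 Tfr cells on both sides, 2 genes were called, 1 higher and 1 lower. With every clonotype given equal weight, which raises the part of the many clonotypes with 1 Tfr cell, 58 genes were called, 26 higher and 32 lower.

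Tfr-only clonotypes of 2 or more cells also differed from single Tfr cells, in 6 genes by limma, 5 higher and 1 lower, in a comparison chosen after seeing the data. Ms4a4b fell by 0.29 (limma adjusted p = 2.67e-16, lower in 10 of 10 mice) and Il1r2 rose by 0.24 (limma adjusted p = 1.72e-08, higher in 10 of 10). Below the fold limit, Tnfsf8 was at -0.17 (limma adjusted p = 3.42e-11) and Cd40lg at -0.10 (limma adjusted p = 1.47e-06). Both were lower in Tfr-only cells in 10 of 10 mice. Foxp3 was at 0.06 and did not pass (limma adjusted p = 0.227). Single Tfr cells had a Foxp3 UMI in 58.6% ± 5.42 (SD, n = 10) and a Tnfsf8 UMI in 23.5% ± 4.56.

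Between conditions, the sister difference itself was tested on the difference of each mouse, 564Igi against WT. By limma 1 of 9942 genes (0.0101%) passed an adjusted p below 0.05, and 650 had an unadjusted p below 0.05. That gene was Ms4a4b, whose sister difference was 0.08, 0.08, 0.13, 0.10 and 0.30 log2 units in the WT mice 11, 12, 14, 23 and 36 and 0.38, 0.37, 0.34, 0.28 and 0.43 in the 564Igi mice 13, 17, 21, 24 and 34. The means were 0.14 and 0.36, and they differed by 0.22 ± 0.04 (SE, limma adjusted p = 0.0191). The values of the conditions overlapped through WT mouse 36 and 564Igi mouse 24. The Ms4a4b level in Tfr-only cells was 0.28 to 0.63 log2 units in WT mice and 0.18 to 0.33 in 564Igi mice. With a sister it was 0.48 to 0.71 and 0.50 to 0.70. So the conditions lay apart mainly on the Tfr-only side, though the authors normalized each condition separately. Over all mice its fold change was 0.03 in Tfr-majority and 0.73 in Tfr-minority clonotypes, and the part of this makeup was not tested. Without the trend in limma the count of genes that passed was 0, and it was 0 also without WT mouse 11, 12 or 23 or 564Igi mouse 13 or 34, and up to 13 without 564Igi mouse 24. Foxp3 (-0.24 in WT and -0.28 in 564Igi, limma adjusted p of the difference 0.924), Tnfsf8 (0.22 and 0.32, 0.666) and Cd40lg (0.12 and 0.23, 0.189) did not pass. Sdf4 was at -0.09 in WT and -0.43 in 564Igi (limma adjusted p of the difference 0.0651), Cst7 at -0.10 and -0.40 (0.120), and Izumo1r, the gene of folate receptor 4, at -0.01 and -0.39 (0.0651), none of which passed. With WT mice alone and with 564Igi mice alone Foxp3 was called as lower and Tnfsf8 as higher in both.

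Receptor features were compared over 665 clonotypes with sisters and 638 Tfr-only clonotypes whose Tfr cells list 1 α and 1 β chain. The CDR3α length averaged 13.6 ± 0.17 residues with a sister and 13.4 ± 0.23 in Tfr-only clonotypes (SD, n = 10 mice, exact sign-flip permutation p = 0.0313, adjusted over 12 features 0.375). The CDR3β length was 14.1 ± 0.20 and 13.9 ± 0.23 (exact permutation p = 0.107, adjusted 0.645). The hydropathy of β positions 6 and 7 was -0.961 ± 0.231 and -0.977 ± 0.155 (exact permutation p = 0.844, adjusted 0.923). The 9 TRBV genes tested had adjusted exact permutation p from 0.773 to 0.945, with TRBV13-1 at 7.56% ± 4.49 of clonotypes with sisters and 5.02% ± 3.43 of Tfr-only clonotypes. None of the 12 features passed after adjustment. CDR3 pairs seen in more than 1 mouse made up 7 clonotypes with sisters and 3 Tfr-only clonotypes.

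The Tfr label was checked against its markers, and the Tfr cells of Tfr-minority clonotypes went against it in part: Foxp3 was found in 20.9% of them. The summed corrected count of 6 Tfr markers (Foxp3, Il2ra, Ikzf2, Ctla4, Tnfrsf18, Izumo1r) was 15.1 to 18.3 per cell over mice in Tfr-only cells, 15 to 18.4 in Tfr-majority clonotypes and 7.89 to 14 in Tfr-minority clonotypes. Of 3 T cell markers (Cd3e, Cd3d, Cd4) all were found on every side, with sums of 14.5 to 18.2 in Tfr-only cells and 12.2 to 15 in Tfr-minority clonotypes. Of 8 B cell markers 7 were in the matrix, and their sum was 0.13 to 0.31 per cell with a sister and 0.18 to 0.32 in Tfr-only cells, with Ms4a1 at 0 on both sides. Of 6 myeloid markers 5 were in the matrix, at sums of 0.013 to 0.290 with a sister and 0.031 to 0.118 in Tfr-only cells, where Lyz2 and Csf1r were at 0. Erythroid markers (4 of 5 in the matrix) reached at most 0.022 on either side, and CD8 and NK markers (3 of 5) lay between 0.081 and 0.206. With cells listed with other than 1 α and 1 β chain left out, which could include doublets, limma called 3 genes as higher and 8 as lower, and Foxp3 had a log2 fold change of -0.27. Doublets were not called, and their part in the result was not tested beyond this.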

How the data were processed

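Single-cell 5′ RNA and TCR libraries of 10 chimeras were analysed from the files as deposited. Per the study's methods, the authors aligned reads with Cell Ranger 4.0.0 to GRCm38 (mm10), filtered cells in Seurat 3.1.4 and ran sctransform on each condition separately. The deposited matrix (13798 genes, 28192 cells) holds the natural log of the corrected UMI count plus 1, and 100% of values gave whole counts within 1e-06. The authors' cell table gives UMI and gene counts per cell, the percent of mitochondrial and ribosomal UMIs, a heat shock score and the cluster names. The authors' correction lowers depth differences between cells and was fitted per condition, so levels are compared within mice. Raw counts per gene were not used here, so cells were not thinned to a common depth.

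RNA and TCR tables were joined by library and barcode. The TCR table was found to list up to 2 CDR3 values per cell, and 84.7% of matched cells had 1 α and 1 β chain. Values were averaged as log2(corrected count + 1), a pseudocount of 1, which understates the change of low genes. Genes found in at least 1% of the cells of both sides together in at least 50% of mice were kept, and a side needed 10 cells. Sides were compared with limma 3.58.1 in R 4.3.3 (mouse as block, trend), and per-mouse measures with exact sign-flip (1024 patterns) or exact permutation tests (252 assignments of mice, smallest p 0.00794), all two-sided, in scipy 1.17.1 and numpy 2.4.6. Same-numbered sides come from the same mouse, so the mouse block pairs them. Each mouse is 1 chimera and the replicate.

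Members and gene lists were chosen with earlier results of these data known. Named genes are up to 12 called in each direction with the same sign in all mice but at most 1, the 8 of lowest p where fewer than 5 were called, and the regulatory T cell, Tfh and homing lists. Positions were taken from GENCODE on GRCm38, and 97.2% of tested genes matched. The fit was tested on simulated data. Intervals of shares in single clonotypes are exact binomial (Clopper-Pearson, 95%), also for counts of 0. Alternatives changed the block, trend, filter, scale, weights, clonotype and sister definitions, cells and mice. The Tfr-majority against Tfr-minority test, the quartile range of UMIs, the comparison with single cells and the Foxp3 share of sisters were chosen after seeing the data. The β chain sequence of 1 clonotype is not reported here.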

Additional observations from a re-analysis of the deposited data

Results flagged for a closer look

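In 5 of 56 groups of 5 mice examined, 1 mouse lay far from the others by Dixon's test, which chance alone does in about 1 in 20 groups. The share of Tfr cells with a Tfh sister was 64.4% in 564Igi mouse 17, far above the other 564Igi mice. The share of those cells in Tfr-majority clonotypes was 85.5% in WT mouse 12, above the other WT mice. The sister difference of Cd81 was -0.0096 log2 units in 564Igi mouse 24, against -0.38 to -0.41 in the other 564Igi mice. That of Ptpn11 was 0.0315 in 564Igi mouse 17, the lowest of its condition. That of Ms4a4b was 0.30 in WT mouse 36, above the 0.08 to 0.13 of the other WT mice.

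The sister difference of Ms4a4b differed between conditions by 0.22 log2 units, 564Igi above WT (limma adjusted p = 0.0191), and by 0.20 to 0.26 when each mouse was left out in turn.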

How the results depend on the processing

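The count of 11 genes called by limma between Tfr cells with a sister and Tfr-only cells became 114 at an adjusted p below 0.05 with no fold limit, 3 without the trend, 3 without the filter on low genes, 68 on log2 of the mean count plus 0.05 (46 higher, 22 lower) and 58 with equal weight per clonotype. Without the mouse as a block, so with the pairing dropped, it was 5 (2 higher, 3 lower). It was 2 with at least 2 Tfr cells per clonotype, 17 with at least 2 sisters, 7 against clonotypes of 1 cell and 7 without mice 34 and 36. It was 0 in Tfr-majority and 121 in Tfr-minority clonotypes, and 0 in cells with Foxp3 found. Among alternatives chosen after seeing the data it was 141 for Tfr-majority against Tfr-minority, 0 for Tfr-majority with at least 2 Tfr cells and equal weight, 6 for Tfr-only against single cells and 84 for Tfr-minority within the UMI quartiles. Leaving out each mouse gave 9 to 14.

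The sign turned in Tfr-majority clonotypes for Tnfsf8 (-0.0038), Cd74 (0.0299), Ptpn11 (-0.0124, and -0.0200 with at least 2 Tfr cells and equal weight), Nfkbid (-0.0200) and Cd200 (-0.0060), in cells with Foxp3 found for Nfkbid (-0.0079), and against clonotypes of 1 cell for Ms4a4b (-0.0421) and Il1r2 (0.0021), none past the limma threshold. The share with a sister turned to 1.31 points by clonotype, and was -11.8 to -6.02 with each mouse left out. The count of genes differing by condition was 0 without the trend, 0 without the filter and 0 to 13 with each mouse left out. Of 7 cell measures, 1 passed, against 5 with equal weight, 3 with 1 α and 1 β chain, 0 in Tfr-majority and 5 in Tfr-minority clonotypes, and 1 to 2 with each mouse left out. Over 9 gene lists the 5 calls, genes on several lists counted in each, became 32 at an adjusted p below 0.05. Of the other values of single genes and measures, 637 kept their side of the threshold, 97 lost it and 42 gained it. The cause of these changes was not tested.

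Cells per side (37 to 115 per mouse in Tfr-minority clonotypes) limit the precision. Clonotypes are sampled, so a Tfr-only clonotype may have sisters among cells not captured, and the cluster names rest on the expression of the same cells.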
